A study of Mus musculus with 32 samples.

Results

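The genes described here are the mouse genes for the protein subunits of the cytosolic ribosome, followed across glial cell types, ages and 1 treatment. They were chosen by symbol: Rpl or Rps followed by a number, with the stalk genes Rplp0, Rplp1 and Rplp2 and with Rpsa, and without the pseudogenes whose symbols end in -ps. This gave 83 of 58665 distinct symbols over 4 tables of raw counts, 32 of the small and 51 of the large subunit. The astrocyte, oligodendrocyte and microglia tables list all 83 and the culture table lists 79. In the annotation, 80 are protein coding and 3 (Rpl6l, Rpl32l and Rps4l) are pseudogenes.

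A cytosolic ribosome carries a single copy of nearly every one of these proteins, and cells make them in matched amounts. In mammals many of their messenger RNAs begin with a C followed by a run of pyrimidines, the 5′ terminal oligopyrimidine (TOP) motif, through which mTORC1 and LARP1 set how strongly they are translated. MYC is known to raise transcription of ribosomal protein genes and ribosome assembly factors in many cell types, and Omomyc, the protein given to the cultures, is a dominant-negative MYC derivative.

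RNA was sequenced from 32 libraries of glia from TDP-43_Q331K mice, a model of amyotrophic lateral sclerosis in which TDP-43, a protein that binds RNA, carries a point mutation. All libraries share this transgene, whose promoter the sources used here do not give, so age in these animals cannot be told apart from the course of the model. Sorting of cortex plus spinal cord with O4 gave 4 oligodendrocyte libraries at 6 months and 4 at 3 months. Sorting of both tissues with ACSA2 gave astrocytes, as 4, 5 and 2 libraries at 3, 6 and 10 months. Cd11b sorting of cortex alone gave microglia, as 4 libraries at 10 months and 3 at 3 months. Primary astrocytes, grown for 14 days and replated, received 40 µM Omomyc or vehicle for 48 hours, with 3 libraries each. Whether libraries of a group came from separate animals or cultures is not stated, so p-values measure the spread between these libraries.

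Total counts per library ran from 9752907 to 18598533 in oligodendrocytes, 6151583 to 20763190 in astrocytes, 4145129 to 5612071 in microglia and 30117025 to 37470972 in culture. Defining markers went with the labels, and astrocyte libraries also held myelin transcripts. The 12 astrocyte markers summed to between 26282 and 39825 CPM (counts scaled to library size) in astrocyte libraries and between 523 and 798 CPM in oligodendrocyte libraries, but the 12 myelin markers also reached 17341 to 39959 CPM in astrocyte libraries, against 85650 to 172285 CPM in oligodendrocyte libraries. In microglia, the 12 microglia markers summed to 33623 to 45279 CPM at 10 months and 25926 to 31882 CPM at 3 months.

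Promoter start sequences are given first because the TOP motif is read at the first bases of the transcript. RefSeq promoter entries (build GRCm38.p6) matched 61 of the 83 genes, with 73 start windows. A run of 5 or more pyrimidines that opens with C at the annotated start was found in 14 of the 73 windows (19.2%) and in 2.51% of 32851 windows of all genes, counted on the transcribed strand and at the start base only. The windows below hold 15 bases before the start and 15 from it, with the pyrimidine run that begins at the start in capitals. A run that begins some bases away from the annotated start was not counted. The first group of genes has the run, and the others, which are compared with them below, do not have a run of this length there.
Rps6: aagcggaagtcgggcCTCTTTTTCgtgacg
Rps21: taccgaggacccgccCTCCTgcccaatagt
Rps27: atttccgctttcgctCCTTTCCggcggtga
Rpl35: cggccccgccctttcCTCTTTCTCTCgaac
Rpl38: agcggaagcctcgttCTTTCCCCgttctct
Rplp2: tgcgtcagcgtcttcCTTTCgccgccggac
Rps27l: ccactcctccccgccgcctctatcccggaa
Rpl37: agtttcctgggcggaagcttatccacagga
Rps12: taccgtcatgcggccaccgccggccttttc
Rpl10a: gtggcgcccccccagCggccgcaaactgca
These windows lie at chr4:86857353-86857382 (-), chr2:180257364-180257393 (+), chr3:90213634-90213663 (-), chr2:39005117-39005146 (-), chr11:114668565-114668594 (+) and chr7:141447636-141447665 (+) for the first group, and at chr9:66946071-66946100 (+), chr15:5116598-5116627 (+), chr10:23787195-23787224 (-) and chr17:28328456-28328485 (+) for the others. Rps21, Rps27l and Rpl10a have a second annotated start, which holds no such run. Within the whole promoter entry (250 bases before to 50 after the start, both strands), the ETS-type motif CCGGAAG was present in 35.6% of the 73 windows against 8.86% of all, and TATAAA in 9.59% against 13.6%. The E-box CACGTG, which MYC is known to bind, was present in 11% of the windows against 7.15% of all. A match describes letters only and does not show binding.

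Levels between genes were compared on the deposited TPM values, which are scaled for length, in the astrocyte and oligodendrocyte tables. The highest mean TPM over 11 astrocyte libraries belonged to Rps15 (528), Rplp1 (517), Rpl4 (471) and Rpl38 (365), and the same 4 genes led over 8 oligodendrocyte libraries, with Rplp1 at 1013, Rps15 at 915, Rpl4 at 644 and Rpl38 at 599 TPM. Rplp1 encodes an acidic protein of the stalk that recruits translation factors, and Rpl4 a protein that lines the exit tunnel. The lowest tested members were also shared: Rpl24, Rps10, Rpl13a and Rps15a had 6.30, 7.53, 11.1 and 25.0 TPM in astrocytes and 5.0, 7.34, 15.7 and 32.2 TPM in oligodendrocytes. TPM divides by length, and Rps15a has the longest annotated transcript of the members, 5130 bases with 390 of them coding. In oligodendrocytes Rps15a had 43.8 to 82.1 CPM, where the median member of a library had 60.9 to 117 CPM. The median member stood at 105 TPM in astrocytes and 155 TPM in oligodendrocytes (78 tested members each, in tables scaled separately). On this scale the members spanned a wide range, although the ribosome holds a single copy of nearly every one of their proteins. In culture, levels per kilobase of coding length were highest for Rpl41 (2362 CPM per kb), Rplp1 (1007), Rps29 (755) and Rps2 (685) and lowest for Rpl36a (205), Rpl36 (215), Rps27l (220) and Rpl34 (243). This scale leaves out untranslated bases, and Rpl41 has 75 coding bases in a transcript of 544 bases. Before the division Rpl41 had 145 to 231 CPM in culture, where the median member of a library had 154 to 215 CPM. The 3′ kit of the microglia table counts transcript ends and gives no level comparable between genes. Its largest values were those of Rplp2 (1448 CPM), Rplp1 (678), Rps20 (594) and Rps14 (545), and its smallest tested ones those of Rps6 (1.80), Rpl39l (2.28), Rpl29 (4.26) and Rpl15 (4.51).

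**Figure D1:**
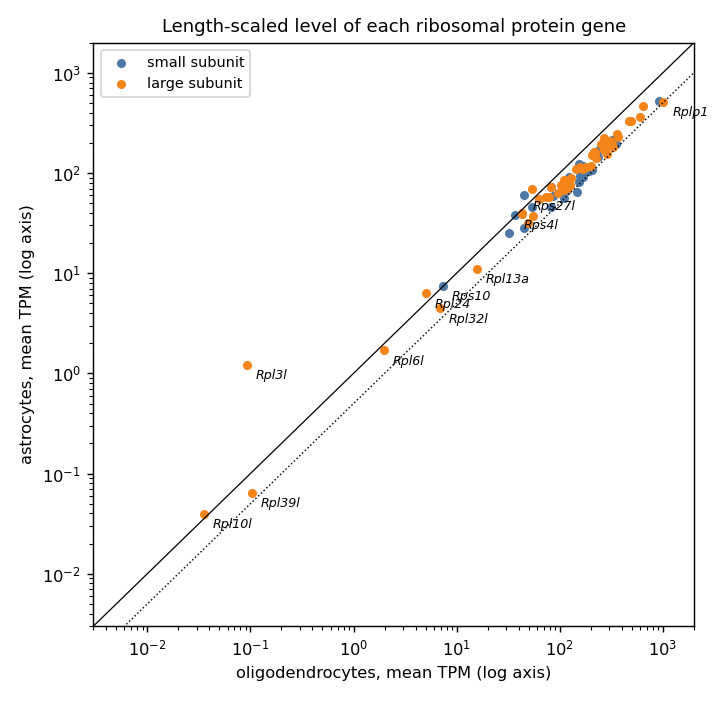
Mean TPM of each ribosomal protein gene in 8 oligodendrocyte libraries (horizontal) and 11 astrocyte libraries (vertical), both on log axes, with small and large subunit genes in 2 colours. The solid line marks equal values and the dotted line a value in astrocytes 2 times lower; most members lie between the lines, Rplp1 is at the upper end, and Rpl3l lies far above the solid line at very low TPM.

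Low values of single members depended on the table, and part of them bears on counting. Rpl24, a large subunit protein, had between 0.77 and 2.88 CPM in the astrocyte and oligodendrocyte libraries and between 135.5 and 196 CPM in culture. Rps10 had between 2.72 and 9.06 CPM in the same sorted libraries and between 139 and 185 CPM in culture. Rps6, the small subunit protein that S6 kinases phosphorylate, had between 0.23 and 4.98 CPM in microglia and between 268 and 357 CPM in culture. The tables were made and scaled separately, with other kits or gene lists, so table and cell type cannot be told apart in these gaps. Ribosomal protein genes have many processed pseudogenes: 71 of the 83 share at least one 100 base stretch with an annotated pseudogene, and in 34 less than 50% of such stretches are unique to the gene. Only 19.9% were unique in Rpl24, 52.3% in Rps10, 16.4% in Rps6 and 1.63% in Rps27, so reads of these genes can be dropped or split in ways that the sources used here do not give. The pseudogenes ending in -ps took 0.00662 to 0.0123% of counts in astrocytes, 0.00746 to 0.0189% in oligodendrocytes, 0.150 to 0.282% in microglia and 0.00517 to 0.00718% in culture. By age, their share in oligodendrocytes was 0.0101 to 0.0189% at 6 months and 0.00746 to 0.00898% at 3 months. In microglia it was 0.218 to 0.282% at 10 months and 0.150 to 0.179% at 3 months. The ages did not overlap in either cell type, and the part of such reads in the members' changes was not tested.

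Together, the 83 genes took 0.816 ± 0.104% of all counts in oligodendrocytes at 6 months and 0.605 ± 0.039% at 3 months (SD, n = 4 each). In microglia the share was 1.14 ± 0.11% at 10 months (n = 4) and 0.893 ± 0.131% at 3 months (n = 3). In astrocytes it was 0.438 ± 0.034% at 3 months (n = 4), 0.474 ± 0.049% at 6 months (n = 5) and 0.537 ± 0.016% at 10 months (n = 2). Cultured astrocytes gave 1.63 ± 0.10% with Omomyc and 1.71 ± 0.26% with vehicle (n = 3 each). The groups did not overlap in oligodendrocytes, nor between 10 and 3 month astrocytes, and they overlapped in microglia and in culture. The microglia and culture tables come from other kits or gene lists, so their shares are not compared with those of other tables. Astrocyte and oligodendrocyte tables share a kit and a gene list. At 3 and 6 months every astrocyte library (at most 0.536%) lay below every oligodendrocyte library (at least 0.581%).

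**Figure D2:**
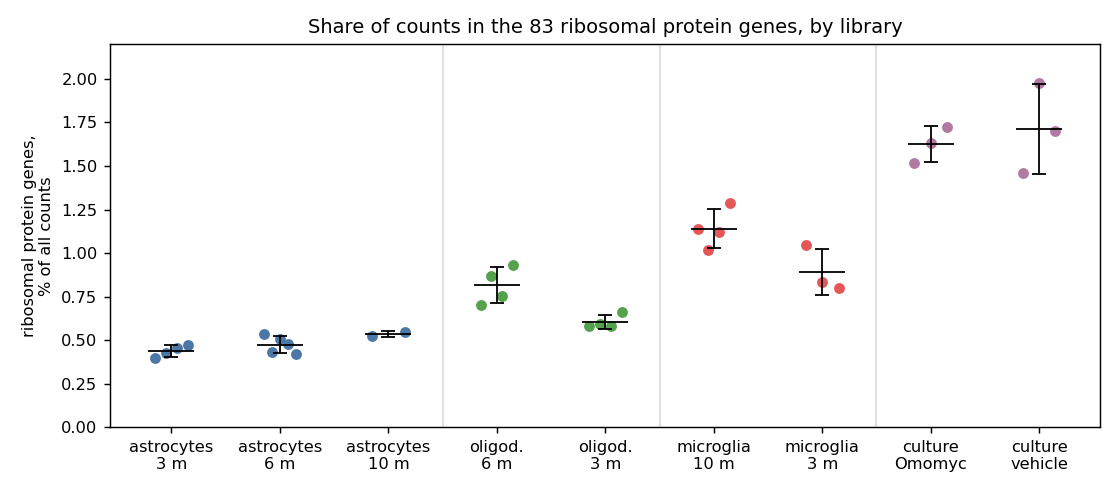
Share of all counts, in percent, that fell on the 83 genes in each of 32 libraries (points), with the mean and SD of each group (bars). The 6 month oligodendrocyte libraries lie between 0.705 and 0.931%, above the 3 month ones at 0.581 to 0.663%, while Omomyc (1.52 to 1.72%) and vehicle (1.46 to 1.98%) overlap.

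Among the age comparisons, oligodendrocytes had the most called members. Of the 78 members that passed the filter on low counts, 69 rose at 6 months against 3 months and 1 fell, by edgeR's quasi-likelihood test at an adjusted p under 0.05. Of all 14050 genes tested, 14.9% were called higher and 9.46% lower. The median log2 fold change was 0.56 over members and 0.02 over all genes tested. The members' summed level rose by 0.55 on the log2 scale in TMM-scaled CPM, but by 0.42 as a share of all counts. In deposited TPM it rose by 0.37, and the ages did not overlap on any of these scales. Both subunits took part, with 29 of 32 small subunit genes and 40 of 46 large subunit genes higher.

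Among small subunit genes, Rps21 had 66.8, 103, 85 and 117 CPM in the 4 libraries of 6 months, against 49.5, 42.5, 49.8 and 54 CPM in those of 3 months (log2 fold change 0.92, SE 0.16, adjusted p = 0.00281). Rps20, which lies in the head of the subunit, had 99.6, 149.5, 105 and 153 CPM at 6 months, against 61.8, 59.6, 61.7 and 85.4 CPM at 3 months (log2 fold change 0.92, SE 0.17, adjusted p = 0.00493). In both genes every 6 month library was above every 3 month library, and library 4 was the highest of each age. Rps10 had the largest log2 fold change of all members, 0.94 (SE 0.28, adjusted p = 0.0317), from only 4.05, 8.11, 4.47 and 9.06 CPM at 6 months and 3.4, 2.72, 3.99 and 3.17 CPM at 3 months. Rps19, a gene mutated in Diamond-Blackfan anaemia, and Rps28 rose by a log2 fold change of 0.85 each (adjusted p = 0.00230 and 0.00520). Rps6 had 89.7, 118, 90.1 and 123 CPM at 6 months, against 60.0, 63.5, 64.9 and 80.9 CPM at 3 months (log2 fold change 0.65, SE 0.13, adjusted p = 0.00674). Rpsa, a small subunit protein also known as a laminin receptor, rose by 0.52 (adjusted p = 0.0117) and Rps14 by 0.63 (adjusted p = 0.0126). These rises were of similar size, between 1.43-fold for Rpsa and 1.92-fold for Rps10.

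The 3 stalk genes differed in size of change. Rplp1 had 138, 219, 172 and 231 CPM at 6 months, against 89.4, 90.6, 97.4 and 119 CPM at 3 months (log2 fold change 0.94, SE 0.16, adjusted p = 0.00322). Its partner Rplp2 had 98.0, 123, 97.3 and 129 CPM at 6 months, against 65.5, 76.1, 64.8 and 81.7 CPM at 3 months (log2 fold change 0.63, SE 0.12, adjusted p = 0.00413). Rplp0, the base on which both sit, had 151, 162, 142 and 162 CPM at 6 months, against 129.7, 128, 121 and 138 CPM at 3 months (log2 fold change 0.26, SE 0.08, adjusted p = 0.0352). All 3 rose with no overlap between ages, but the fold was 1.92 for Rplp1 and 1.19 for Rplp0; the difference between genes was not tested. Rpl5 and Rpl11, which form a particle with ribosomal RNA that can bind the p53 regulator MDM2, rose by 0.47 (adjusted p = 0.00853) and 0.56 (adjusted p = 0.00599). Rpl37 and Rpl23 rose by a log2 fold change of 0.85 each, Rpl22 by 0.49 and Rpl3, which helps to build the peptidyl transferase centre, by 0.33.

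The members without a call included Rpl10a, which had 36.3, 37.1, 36.2 and 41.0 CPM at 6 months, against 36.3, 36.0, 33.5 and 35.8 CPM at 3 months (log2 fold change 0.09, SE 0.07, adjusted p = 0.412). Its ages overlapped, and 12.9% of its 100 base stretches were unique. Rpl7a (0.10), Rpl18 (0.11), Rpl29 (0.22), Rpl13a (0.52) and Rpl24 (0.71) had positive values that did not pass, and Rps27l had -0.16. Rps4l, annotated as a transcribed pseudogene, was the 1 member that fell, with 6.47, 5.15, 5.51 and 7.97 CPM at 6 months against 11.5, 9.95, 13.7 and 15 CPM at 3 months (log2 fold change -1.01, SE 0.18, adjusted p = 0.00312). Its parent gene Rps4x rose by 0.55 (adjusted p = 0.00701).

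**Figure D3:**
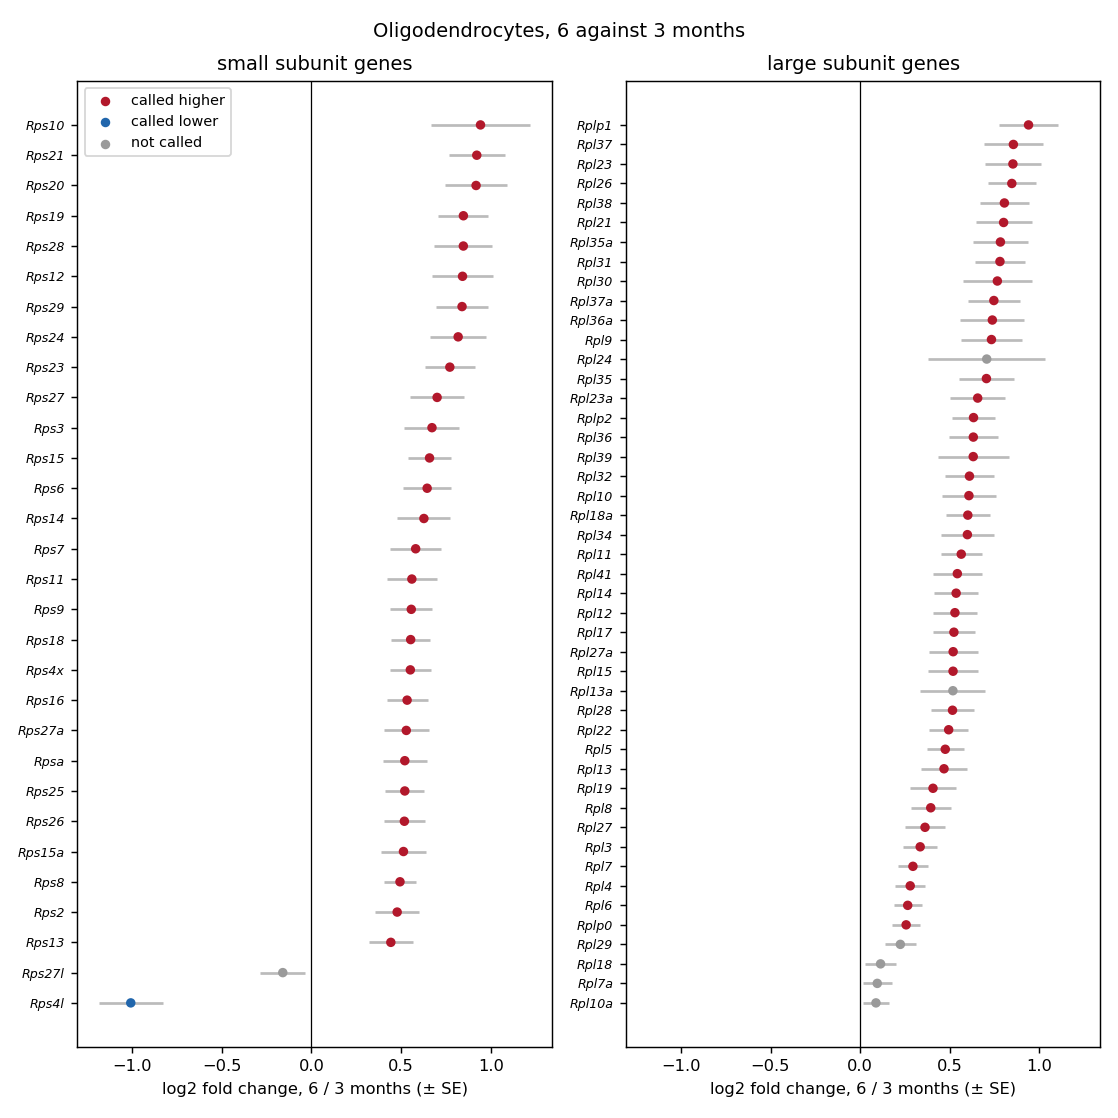
Log2 fold change (horizontal, 6 over 3 months, with SE) of tested small subunit genes (left) and large subunit genes (right) in oligodendrocytes. Nearly all points lie right of 0, from 0.26 for Rplp0 to 0.94 for Rps10 and Rplp1 among those called higher, and Rps4l stands alone at -1.01.

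Change in oligodendrocytes went with the length of the coding sequence. Across 77 tested members with a coding sequence, Spearman's rho between log2 fold change and coding length was -0.56, given as a description because the genes share libraries. With the members split into 3 classes of near equal size, the median log2 fold change was 0.74 in the shortest class (75 to 399 bases), 0.56 in the middle class (405 to 564 bases) and 0.48 in the longest class (576 to 1257 bases). The classes were cut over tested members and the ranges over all 80 coding members, so an edge member can fall outside its range. Other genes in the same length ranges had medians of -0.03, -0.04 and -0.04, none of them above 0. Members with the TOP run at an annotated start were called higher in 13 of 13 cases, with a median of 0.65, and the other members with a RefSeq start in 38 of 44 cases, with a median of 0.55. Of the genes shown above, Rps21 and Rps6, with the run at the annotated start, rose by 0.92 and 0.65. Rpl37 and Rps12, without it at that base, rose by 0.85 and 0.84, while Rpl10a (0.09) and Rps27l (-0.16), also without it there, were not called. Runs that begin near that base were not counted, so members without a counted run can still have a TOP start. By uniqueness of sequence, 27 of 33 members with under 50% unique stretches and 42 of 44 with 50% or more were called higher.

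Other material moved with age in the same oligodendrocyte libraries. The 12 endothelial markers summed to between 274 and 837 CPM at 6 months and between 76.7 and 97.8 CPM at 3 months, and all 12 were called higher. Markers of pericytes, smooth muscle and fibroblasts summed to 241 to 492 CPM at 6 months, against 60.2 to 112 CPM at 3 months, with 7 of 9 tested called higher and 0 called lower. Immediate early genes, which rise when tissue is dissociated, summed to 2167 to 3165 CPM at 6 months, against 1262 to 1582 CPM at 3 months, with 10 of 12 called higher. The 12 ependymal and choroid plexus markers reached 336 to 3916 CPM at 6 months and 89.2 to 967 CPM at 3 months, with 0 of 8 tested called, and none of the markers in these 4 lists was at 0 in all libraries of an age. Genes of RNA composition and quality summed to 70417 to 101014 CPM at 6 months and 57835 to 77546 CPM at 3 months, with 7 of 12 called higher and 2 lower, and 6 of 11 neuronal markers were called higher. Markers of oligodendrocyte precursors, which the O4 antibody can also bind, summed to 889 to 1331 CPM at 6 months and 1314 to 1744 CPM at 3 months, with 9 of 10 negative, a median log2 fold change of -0.78 and 4 called lower. Microglia markers summed to 179.8 to 183 CPM at 6 months and 218 to 297 CPM at 3 months, with 2 of 11 called lower. The myelin list stood at 111226 to 172285 CPM at 6 months and 85650 to 115754 CPM at 3 months, although 7 of its 12 genes were called lower and 2 higher. The part of these genes in the rise of ribosomal protein genes was not tested, and in bulk libraries more cells of a type and more RNA per cell cannot be told apart. Library 4 of the 3 month group had the highest value of its age in 70 of 78 members, and library 4 of the 6 month group in 57, so members moved together between libraries of 1 age as well. Leaving out that 6 month library left 53 members called higher and 1 lower, with a median of 0.45, and leaving out library 2 of 6 months, the second highest, left 46 higher and 1 lower, with a median of 0.49.

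In astrocytes no member was called at 6 against 3 months by edgeR's quasi-likelihood test, DESeq2 or limma-voom, and 1 of 78 had an unadjusted p under 0.05, as did 4790 of all 16189 genes tested. Of those 16189 genes, 6.28% were called higher and 8.29% lower. The members' log2 fold changes lay between -0.21 and 0.33, with a median of -0.01. At 10 against 3 months, 4 members rose and 2 fell, which is 5.13% and 2.56% of the 78, against 11.5% of all genes called higher and 11.2% lower; 15 of 78 members (11 of them higher) and 5820 of the 16189 genes had an unadjusted p under 0.05. At 10 against 6 months no member was called by the same 3 tools, and 0.574% of all genes were called higher and 0.334% lower. There, 12 of 78 members and 2727 of all 16189 genes had an unadjusted p under 0.05, so the members were near the share of all genes. The 3 comparisons share libraries, and with 2 libraries at 10 months their values are given side by side only.

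Rpl23a had 19.1, 20.5, 23.2 and 25.3 CPM in the 3 month astrocytes, 36.0, 21.1, 24.3, 21.5 and 20.0 CPM in the 6 month ones and 36.6 and 37.0 CPM in the 10 month ones (10 against 3 months, log2 fold change 0.73, SE 0.18, adjusted p = 0.00987). Rpl36 had 25.2, 29.1, 32.3 and 31.5 CPM at 3 months, 51.0, 28.4, 37.0, 32.8 and 20.9 CPM at 6 months and 47.7 and 47.3 CPM at 10 months (10 against 3 months, log2 fold change 0.68, SE 0.23, adjusted p = 0.0425). In both genes library 1 of the 6 month group lay with the 10 month libraries. Both share stretches with annotated pseudogenes, and 20.0% of 100 base stretches were unique in Rpl23a and 44.7% in Rpl36. Rps23, at the decoding site, rose by 0.56 (adjusted p = 0.0222) and Rpl10a by 0.45 (adjusted p = 0.0284). Rpl39 and Rps29, 2 of the shortest members, fell by 0.53 and 0.47 on the log2 scale (adjusted p = 0.0198 and 0.0277). Rpl39 had 24.2, 29.1, 30.0 and 31.1 CPM at 3 months, 19.9, 28.0, 23.7, 24.3 and 27.8 CPM at 6 months and 21.3 and 18.5 CPM at 10 months. Leaving out 1 or the other 10 month library left no member called at 10 against 3 months, and without library 1 of the 3 month group 3 were called. Without library 1 of the 6 month group, 1 member was called at 10 against 6 months.

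The size of the summed change in astrocytes depended on the scale. From 3 to 10 months the summed level differed by 0.12 on the log2 scale in TMM-scaled CPM, by 0.30 as a share of all counts and by 0.37 in deposited TPM; the first overlapped between ages and the others did not. A set of 12 genes of RNA composition summed to 86689 to 109890 CPM at 3 months, 45188 to 89648 CPM at 6 months and 40895 to 42872 CPM at 10 months in the same libraries. Myelin markers summed to 25338 to 39959, 17341 to 26478 and 17589 to 26967 CPM at the 3 ages, and 7 of the 12 were called lower at 10 against 3 months. Immediate early genes summed to 528 to 658, 323 to 776 and 1103 to 1380 CPM, and 9 of 12 were called higher at 10 against 3 months. The part of each in the members' values was not tested.

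Astrocytes had lower levels of nearly all members than oligodendrocytes. In a joint fit of the 17 libraries of 3 and 6 months, 74 of 79 tested members were lower in astrocytes and none was called higher, with a median log2 fold change of -0.89; of all 16363 genes, 38.7% were called higher and 35.9% lower. None of the 79 had an unadjusted p under 0.05 in the higher direction, and DESeq2 and limma-voom also called none higher; without the filter on low counts 1 was called higher. Rps12 had the largest difference (log2 fold change -1.45, SE 0.10, adjusted p = 1.79e-11), followed by Rpsa (-1.31), Rplp1 (-1.30), Rps28 (-1.24), Rps3 (-1.24), Rps6 (-1.21), Rps27a (-1.20) and Rpl37 (-1.19). Rpsa averaged 81.7 ± 7.93 CPM in astrocytes (SD, n = 9) and 206 ± 44.7 CPM in oligodendrocytes (SD, n = 8), and the cell types did not overlap. Rpl10a (-0.07, SE 0.07), Rpl24 (-0.04, SE 0.23), Rps10, Rps4l (-0.15) and Rps27l (0.11) were the 5 without a call. Astrocyte libraries also hold myelin transcripts, as given above, and 11 of 12 immediate early genes were lower in astrocytes; their part in the difference was not tested. In the joint fit the TMM factors were 1.04 to 1.19 in astrocytes and 0.835 to 0.934 in oligodendrocytes. They make the gap in CPM wider than the gap in shares of all counts given above. The cell types were deposited as separate tables, so anything that differed in how the tables were made cannot be told apart from cell type.

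The change with age itself differed between the 2 cell types. The 6 against 3 month log2 fold change was lower in astrocytes than in oligodendrocytes for 40 of 79 members and higher for 1 by the interaction term in edgeR, with a median difference of -0.51, against 6.44% of all genes called higher and 9.97% lower. The largest differences were those of Rpl37 (-0.95, adjusted p = 0.00168), Rps29 (-0.94), Rps21 (-0.93, adjusted p = 0.00162), Rpl26 (-0.87), Rps12 (-0.86), Rpl37a (-0.84), Rpl38 (-0.83) and Rps28 (-0.83). Rps6 (-0.63), Rpl5 (-0.47) and Rpl22 (-0.44) were also called, while Rpsa (-0.41, adjusted p = 0.0806), Rpl11 (-0.46, adjusted p = 0.0536) and Rplp0 (-0.12, adjusted p = 0.579) were not. Rps4l was the 1 member with a higher value in astrocytes (1.25, adjusted p = 0.00242). Endothelial markers differed the same way in all 12 of 12 genes. Counts of called members moved to 26 without library 1 of 3 month oligodendrocytes, 27 without library 2 of the 6 month ones and 25 without library 4 of the 6 month ones. The size of the gap depended on the scale. In TMM-scaled CPM of separate fits, the summed level changed by -0.02 in astrocytes and 0.55 in oligodendrocytes on the log2 scale. As a share of all counts it changed by 0.11 and 0.42, and in deposited TPM by 0.13 and 0.37, so the cell types lay closer there.

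**Figure D4:**
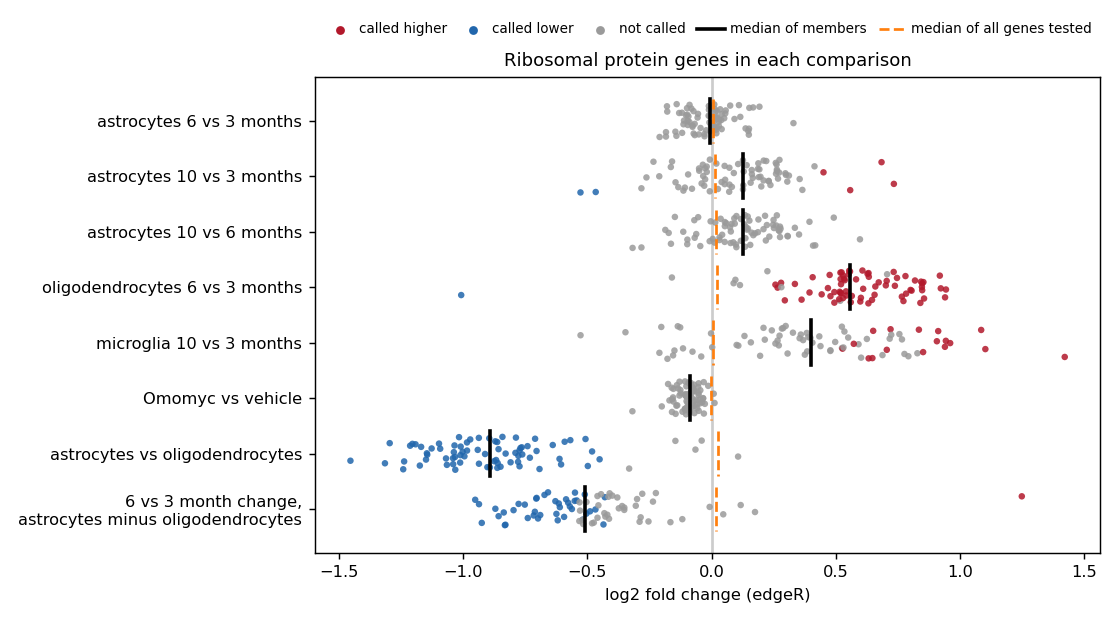
Log2 fold change (horizontal) of every tested member in each of 8 comparisons, coloured by call, with the median of members (black bar) and of all genes tested (dashed). In oligodendrocytes 76 of 78 members lie right of 0 (median 0.56) and in microglia 65 of 78 (median 0.40). The astrocyte ages have medians between -0.01 and 0.13, with members from -0.53 to 0.73 at 10 against 3 months, Omomyc has a median of -0.09, and in astrocytes against oligodendrocytes 78 of 79 lie left of 0 (median -0.89).

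In microglia 17 of 78 members rose at 10 against 3 months and none was called lower, by edgeR's quasi-likelihood test; 37 members, all higher, and 2085 of all 12320 genes, in either direction, had an unadjusted p under 0.05, and DESeq2 called 25 higher and none lower. Of all 12320 genes tested, 1.94% were called higher and 1.27% lower, and the median log2 fold change was 0.40 over members and 0.00 over all genes. The calls covered 9 of 32 small and 8 of 46 large subunit genes. All 17 were also called higher in oligodendrocytes, where they are 24.6% of the 69; the 2 data sets share no library, and since nearly all members rose in oligodendrocytes the overlap says little about single genes. Spearman's rho between the changes in the 2 cell types was 0.15 across 77 members.

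Rpl35 had the largest rise in microglia, with 73.3, 60.9, 62.1 and 35.8 CPM in the 4 libraries of 10 months against 25.7, 25.6 and 13.4 CPM in the 3 of 3 months (log2 fold change 1.42, SE 0.28, adjusted p = 0.0143). Rpl36 had 34.0, 29.1, 40.0 and 39.9 CPM at 10 months, against 20.3, 14.7 and 14.8 CPM at 3 months (log2 fold change 1.10, SE 0.24, adjusted p = 0.0228). Rps4x had 44.7, 51.2, 61.9 and 55.1 CPM at 10 months, against 27.0, 25.6 and 22.6 CPM at 3 months (log2 fold change 1.08, SE 0.20, adjusted p = 0.0117). The ages did not overlap in these genes, and the folds were 2.68, 2.15 and 2.12. Rpl6 rose by 0.96 (adjusted p = 0.00431), Rps27 by 0.94, Rps20 by 0.91 and Rpl37 by 0.91. In the last 300 bases of the transcript, 4.98% of 100 base stretches were unique in Rpl35 and 0% in Rps27. The value was 31.3% in Rpl36, 85.1% in Rps4x and 100% in Rpl6, Rps20 and Rpl37. The part of shared reads in these rises was not tested. Rps14 rose by 0.72 (adjusted p = 0.0235) and Rpl22 by 0.65 (adjusted p = 0.0323). Further calls included Rpl31 (0.85), Rpl26 (0.83), Rps13 (0.70), Rpl12 (0.65), Rps29 (0.63), Rps21 (0.57) and Rps25 (0.53).

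The stalk genes were not among the calls in microglia. Rplp1 had 652, 655, 636 and 599.9 CPM at 10 months, against 824, 693 and 688 CPM at 3 months, lower with no overlap but not called (log2 fold change -0.21, SE 0.11, adjusted p = 0.355). Rplp2 had 1262, 1544, 1538 and 844 CPM at 10 months, against 2053, 1488 and 1407 CPM at 3 months (log2 fold change -0.35, SE 0.18, adjusted p = 0.358), and Rplp0 had a log2 fold change of 0.37 (adjusted p = 0.366). Rpsa (0.21), Rpl3 (0.52), Rpl5 (0.24), Rpl11 (0.38) and Rpl10a (0.72, SE 0.59) did not pass, and Rps6 was too low to judge (SE 1.11). Coding length went less with change than in oligodendrocytes, with a rho of -0.18 over 77 members and medians of 0.50, 0.50 and 0.31 from the shortest to the longest class. Other genes of these lengths had medians of 0.25, 0.13 and 0.07, and 4.58%, 2.48% and 2.10% of them were called higher.

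The microglia count rested on few libraries. Leaving out library 1, 3 or 4 of 10 months left 3, 2 and 4 members called, and leaving out library 3 of 3 months left 4. That library had the lowest value of its age in 54 of 78 members and the lowest total count, 4145129. The median log2 fold change stayed between 0.32 and 0.55 in all of these. Microglia markers were higher at 10 months, as given above, with 2 of 12 called, and other myeloid and lymphoid markers summed to 623 to 913 CPM at 10 months and 471 to 2099 CPM at 3 months. Immediate early genes summed to 8786 to 11050 CPM at 10 months and 11056 to 13429 CPM at 3 months, with 4 of 12 called lower. Their part in the members' values was not tested.

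**Figure D5:**
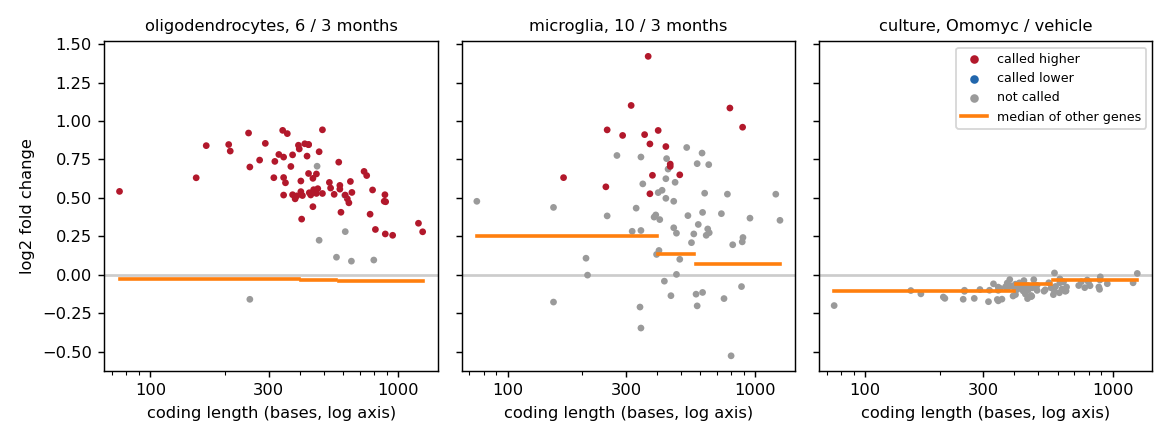
Log2 fold change (vertical) of each tested member against its coding length in bases (horizontal, log axis) in oligodendrocytes, microglia and the cultures, coloured by call; orange bars give the median of other genes in the same 3 length ranges. Short members sit highest in oligodendrocytes (rho -0.56), the spread is wide in microglia (rho -0.18), and in culture short members sit slightly lower (rho 0.53), as do other short genes.

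No member was called between Omomyc and vehicle in cultured astrocytes by edgeR's quasi-likelihood test, DESeq2 or limma-voom, and none had an unadjusted p under 0.05 in the edgeR fit. These fits did not pair libraries of the same number, and a fit that does is given below. Of all 16119 genes tested, 0% were called higher and 0.0186% lower. The members' log2 fold changes lay between -0.32 and 0.01, with a median of -0.09 and 77 of 79 below 0. Rpl3 had 534, 548 and 562 CPM with Omomyc, against 519.7, 652 and 534 CPM with vehicle (log2 fold change -0.05, SE 0.10, adjusted p = 0.945). Rplp0 had 556, 594 and 654 CPM with Omomyc, against 542, 690.2 and 646 CPM with vehicle (log2 fold change -0.06, SE 0.11, adjusted p = 0.944). Rps14 had 159, 174 and 179.6 CPM with Omomyc, against 152, 242 and 177 CPM with vehicle (log2 fold change -0.16, SE 0.17, adjusted p = 0.896). In all 3 genes the vehicle libraries spanned the Omomyc ones, with library 2 of vehicle the highest of all 6.

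That pattern held for the family. Vehicle library 2 had the highest value among vehicle libraries in 78 of 79 members and vehicle library 1 the lowest in 78, and Omomyc library 3 was the highest of its group in 73. Without vehicle library 2 the median log2 fold change was 0.04, so the direction of the family's median rests on that library. Libraries with the same number deviated together (correlations 0.63, 0.43 and 0.68), and with the number as a block 360 genes were called higher and 296 lower among all genes, against 0 and 3 without it, while members remained at 0 calls with a median of -0.08. Mitochondrial ribosomal protein genes had a median of -0.09 too, with 70 of 78 below 0 and none called. Markers of astrocytes summed to 8653 to 9530 CPM with Omomyc and 8340 to 10074 CPM with vehicle, markers of pericytes, smooth muscle and fibroblasts to 5398 to 7002 CPM and 5822 to 8420 CPM, and markers of microglia to 2143 to 4067 CPM and 1795 to 3101 CPM.

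Second copies of ribosomal proteins were mostly at the floor. Rpl3l, known from striated muscle, had 61 counts over 11 astrocyte libraries, 5 over 8 oligodendrocyte libraries and 8 over 7 microglia libraries. Rpl10l, known from testis, had 1 count in all astrocyte and 1 in all oligodendrocyte libraries. Rpl39l, also known from testis, had 3 counts in each of these and 81 in microglia. Rps27l, a p53 target in other cells, was expressed throughout, at 10.0, 8.42, 10.1 and 9.61 CPM in 6 month oligodendrocytes against 11.7, 8.93, 11.3 and 10.7 CPM in the 3 month ones, while its partner Rps27 rose there by 0.70 (adjusted p = 0.00847). The partners Rpl10 and Rpl39 rose there by 0.61 and 0.63 (adjusted p = 0.0173 and 0.0445), each with an overlap between ages, and Rpl3 and Rps4x, given above, rose with none. In microglia Rps27l had a log2 fold change of 0.38 (SE 0.38) and Rps4l of -0.15 (SE 0.31), and neither was called.

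Genes around the ribosome did not all move with its proteins. Of 7 ribosomal protein genes whose symbols fall outside the rule, 3 rose in 6 month oligodendrocytes, among them Rps3a1 at 0.81 (adjusted p = 0.00331) and Fau at 0.51 (adjusted p = 0.0106). Host transcripts of small nucleolar RNAs, which share the TOP start in many cases, rose in 8 of 11 cases with none lower there, among them Gas5 at 0.81 (adjusted p = 0.00200), Zfas1 at 0.80 (adjusted p = 0.00230), Snhg12 at 0.51 (adjusted p = 0.00376) and Snhg8 at 0.68 (adjusted p = 0.00975). Of 20 elongation factor and other TOP genes 5 rose and none fell in oligodendrocytes, including Tpt1 (0.65), Eef1b2 (0.65) and Pabpc1 (0.39); Vim, an intermediate filament gene of this list that vascular cells also express, rose by 1.98. Ribosome biogenesis factors had 2 of 45 higher, Ncl (0.81) and Npm1 (0.71), and 4 lower, among them Rrp12 (-0.52) and Bop1 (-0.35). Mitochondrial ribosomal protein genes had 0 of 77 higher and 3 lower, Mrpl58 (-0.43), Mrps30 (-0.41) and Mrpl36 (-0.48), and initiation factors 1 higher, Eif5 (0.45), and 3 lower of 22. Against the 14.9% of all genes called higher and 9.46% called lower, the counts for biogenesis, mitochondrial and initiation genes in the higher direction were below the share of all genes.

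Lists of control genes are set against the same 14.9% and 9.46%. In the mTORC1 list 2 of 15 tested rose in 6 month oligodendrocytes, no more than the share of all genes, namely Eif4ebp2 (0.41) and Rps6kb1 (0.32), and Deptor, an mTOR inhibitor, fell (-0.42). In the MYC network 3 of 11 rose, Mlxip (0.54), Max (0.41) and Mnt (0.36), and Mycn fell (-1.31), at a low level of 1.96 CPM at 6 months against 4.81 CPM at 3 months. Of 13 genes of the p53 response 5 rose, among them Btg2 (1.30), Bbc3 (0.80), Mdm2 (0.25) and Trp53inp1 (0.41). Btg2 is also in the list of immediate early genes given above. Importers and chaperones of ribosomal proteins had 3 of 11 lower, Heatr3 (-0.40), Kpnb1 (-0.26) and Ipo5 (-0.23), and none higher. In microglia, where 1.94% of all genes were called higher and 1.27% lower, the elongation and TOP list had 2 of 20 higher, Eef1a1 at 0.97 (adjusted p = 0.0101) and Eef1b2 at 0.89 (adjusted p = 0.0216), and 0 of 71 mitochondrial ribosomal protein genes were called, with 7 at an unadjusted p under 0.05. Neither biogenesis factors (44 tested) nor small nucleolar RNA hosts (10 tested) had a call in microglia, with 4 and 3 at an unadjusted p under 0.05.

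Between astrocytes and oligodendrocytes, list counts are set against 38.7% of all genes called higher and 35.9% called lower. Elongation and TOP genes were lower in 19 of 20 cases and higher in 1, Vim, and among the lower were Tpt1 (-1.48), Eif4b (-0.90) and Eef1a1 (-1.10). Hosts of small nucleolar RNAs were lower in 8 of 11 cases, among them Gas5 (-1.25), Snhg12 (-0.81), Snhg5 (-0.76) and Zfas1 (-1.11), and initiation factors in 15 of 22. Biogenesis factors were lower in 21 of 45 cases and higher in 5, with Ncl (-1.22), Pes1 (-0.82), Polr1a (-0.78) and Npm1 (-0.69) the named ones. Mitochondrial ribosomal protein genes had 24 of 77 higher and 20 lower, both below the shares of all genes, and a median of 0.04. In astrocytes at 10 against 3 months, biogenesis factors had 2 of 45 higher and 4 lower, both below the 11.5% and 11.2% of all genes. At 6 against 3 months, where 8.29% of all genes were called lower, 1 of 45 biogenesis factors, Polr1a, fell (-0.47), as did 4 of 11 importers and chaperones, Ipo7 (-0.37), Kpnb1 (-0.31), Ipo9 (-0.27) and Heatr3 (-0.40).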

How the data were processed

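The authors deposited raw counts per gene, not normalized, for sorted astrocytes and oligodendrocytes (kit with unique molecular identifiers), sorted microglia (3′ kit) and cultured astrocytes, and TPM tables of the first 2, per the labels. Per the submitters' processing notes the tools were featureCounts 2.0.1, UMI-tools 1.0.1, STAR 2.7.7a, fastp and DESeq2, and 3 builds appear without a stated role (mm10, GRCm38.p6, GRCm39). How reads with several matches were counted is not stated there. The culture table lists fewer genes, by a rule that is not stated. The deposited TPM values served for levels between genes and for the summed level. Microglia and culture identifiers were named from a reference table of gene names (52093 of 53700 and 17559 of 17572).

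Separate fits were made per table with edgeR 4.0.16 (R 4.3.3): TMM scaling, filterByExpr at a minimum count of 10, robust quasi-likelihood fit, two-sided F test, Benjamini-Hochberg adjustment over all genes tested, called at 0.05. A joint fit took both sorted macroglial types at 3 and 6 months. CPM uses TMM-scaled library sizes, and the spread between libraries sets precision. Low counts left 5 members untested in astrocytes and oligodendrocytes (Rpl10l, Rpl32l, Rpl39l, Rpl3l, Rpl6l) and 5 in microglia (Rpl24 in place of Rpl39l). Alternatives were DESeq2 1.42.0, limma-voom 3.58.1, other scaling and filters, a replicate block and leaving out each library. In culture, same-numbered libraries correlated (0.63, 0.43, 0.68), so the block is given there. Fits were tested on simulated data. Sequence sharing used 100 base words of GENCODE vM21 transcripts. Named genes were 9 fixed members, copies with their partners, the 8 called with the largest change each way (at least 5 CPM in the higher group), all calls where 10 or fewer, extremes of level and up to 4 genes a list by p. A few genes are counted but not reported here singly. Members and lists were chosen with earlier results of these data known.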

Additional observations from a re-analysis of the deposited data

Results flagged for a closer look

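Among 111 tests for a library that stands apart from its group, 6 were marked, where chance marks about 1 in 20. The share of counts in the 83 genes was 0.663% in library 4 of 3 month oligodendrocytes, against 0.581 to 0.593% in the other 3. Rps20 had 85.4 CPM in the same library, against 59.6 to 61.8 CPM in the others of its age. Rpl10a had 33.5 CPM in library 3 of 3 month oligodendrocytes, against 35.8 to 36.3 CPM in the others. Rpl10a had 35.9 CPM in library 5 of 6 month astrocytes, against 47.1 to 49.3 CPM in the others. Rpl23a had 36.0 CPM in library 1 of 6 month astrocytes, against 20.0 to 24.3 CPM in the others. Rpsa had 106.9 CPM in library 4 of 3 month astrocytes, against 84.6 to 87.0 CPM in the others.

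The 6 against 3 month change differed between the cell types by the interaction test, as astrocytes minus oligodendrocytes, in 40 members with a lower and 1 with a higher value in astrocytes. On the log2 scale the difference was -0.63 for Rps6, -0.47 for Rpl5, -0.44 for Rpl22, -0.66 for Rpl10, -0.75 for Rpl39 and -0.56 for Rps4x. It was -0.95 for Rpl37, -0.94 for Rps29, -0.93 for Rps21, -0.87 for Rpl26, -0.86 for Rps12, -0.84 for Rpl37a, -0.83 for Rpl38 and -0.83 for Rps28. Rps4l had a difference of 1.25.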

How the results depend on the processing

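The members' median log2 fold change moved by less than the spread between libraries in all 144 alternatives, from 0.45 to 0.64 in oligodendrocytes, 0.32 to 0.55 in microglia and -0.94 to -0.86 between cell types. With Omomyc it lay between -0.20 and 0.04. The spread, as SD of the libraries' median log2 CPM, was 0.18 in culture and 0.12 in astrocytes, near or above the size of the medians there. A median could thus all but vanish or, as with Omomyc, change sign and still count as unmoved. Of 2801 alternative values for named members, 2664 kept the call or the lack of one, 110 lost the call, 18 gained one and 9 moved. The 2664 can include uncalled values that changed sign by less than their SE in the main fit. Those that moved were uncalled and changed sign by at least that SE. Called members ran from 47 to 74 when single libraries were left out of oligodendrocytes, 73 to 75 between cell types, 25 to 54 for the difference of age changes, 2 to 24 in microglia, 0 to 6 in astrocytes at 10 against 3 months and 0 to 1 at 10 against 6 months. Without a filter on low counts, 26 were called in microglia and 2 in astrocytes at 10 against 6 months. With a replicate block, 10 were called in microglia, 69 in oligodendrocytes, 74 between cell types, 38 for the difference of age changes, and 0, 5 and 0 in astrocytes at 6 against 3, 10 against 3 and 10 against 6 months; numbers in these tables do not pair libraries by the labels or by their correlations, and in culture, where they do, the block left 0 members. The cause of each move was not tested. The summed level in astrocytes differed by 0.13 between 6 and 3 months in TPM, and by 0.30 (share of counts) and 0.37 (TPM) between 10 and 3 months. In oligodendrocytes it differed by 0.42 (share of counts) and 0.37 (TPM) between 6 and 3 months. Depth limits Rpl24, Rps10 and the second copies most.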
